A study of Homo sapiens and Mus musculus with 13 samples.

Results

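The tumour suppressor p53 (Trp53 in the mouse), its regulators Mdm2 and Mdm4, and 7 genes that p53 is known to switch on directly were followed in mouse haematopoietic progenitor cells with and without mutant nucleophosmin. The 10 genes were chosen by name, with earlier results of these data known. All were found once each among the 37991 genes of the mouse tables. All 10 reached the minimum level for testing, a mean normalized read count of 10 over the 5 libraries, and 13132 genes in all did so. The knock-in cells were 3 single-cell clones, numbered 4, 12 and 18, in which NPM1c, the leukaemia form of nucleophosmin that moves from the nucleolus to the cytoplasm, was introduced by CRISPR/Cas9 together with GFP. Their controls were 2 libraries of the parental wild-type line. Clones and controls alike had been immortalized with HOXB8 and were kept in stem cell factor and 1 uM beta-estradiol, without drug. No clone lacking the knock-in was given, so the effects of the knock-in and of single-cell cloning cannot be told apart. No label states whether the controls were grown separately, so the p-values may rest on a technical spread. Another 8 libraries of the series are human leukaemia cells and were not analysed here.

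In unstressed cells p53 protein is made and destroyed continuously. Mdm2 marks it for degradation, and its relative Mdm4 covers the part of p53 that activates transcription. DNA damage, oncogene activity or disturbed ribosome production interrupts this control, and stabilized p53 then raises the transcription of genes that stop the cell cycle, repair DNA, adjust metabolism or start apoptosis, and of Mdm2 itself. Control of p53 is thus exerted mostly on the protein, which RNA sequencing does not measure. Nucleophosmin is known to bind the p19ARF product of Cdkn2a, an inhibitor of Mdm2, in the nucleolus.

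The recovered reads numbered 7358340 to 12235174 in the clones and 9728260 and 99557475 in parental replicates 1 and 2. Parental replicate 2 was thus 10.2 times as deep as replicate 1. The parental libraries differed by more than 1.5-fold in 12.3% of tested genes, and pairs of clones in 9.87% to 15.7%. Npm1, the targeted gene, was at 14305, 15141 and 14144 in clones 4, 12 and 18, against 25695 and 25714 in the parental libraries, below its controls in every clone (log2 fold change -0.82, SE 0.0673, adjusted p = 0.000533, limma). A single value per gene does not separate mutant from normal transcripts. The headings of the clones' value columns carry the same 3 clone numbers in another arrangement than the library titles, so values are assigned to a clone here by title, and the number of a clone is less certain than its group. All 8 progenitor markers examined, among them Kit, Cd34, Flt3 and Hoxb8, were present in all libraries, with Ptprc and Myb higher in the clones (adjusted p = 0.0432 and 0.0412, limma), Flt3 lower (0.0117) and 5 not past the test (summed level 62806 to 73113 in knock-in libraries and 57502 to 62048 in parental ones). The cells were immortalized with HOXB8, so Hoxb8 reads, which are part of the sum, are no check of cell type.

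Of the 10 genes, 6 rose in the knock-in clones (Cdkn1a, Btg2, Ccng1, Zmat3, Bax and Trp53inp1) and 4 did not pass the test (Trp53, Mdm2, Mdm4 and Phlda3). Over all tested genes 7.51% rose and 8.49% fell at the same threshold, an adjusted p under 0.05 by limma over all 13132 genes. The median log2 fold change, clones over parental, was 0.82 among the 10 and 0.01 among all tested genes. Because the 10 were chosen with earlier results of these data known, these comparisons are a description and not a test. None of the 10 fell by limma, none had an unadjusted p under 0.05 in that direction, and edgeR and DESeq2 on the recovered reads likewise gave 6 higher and 0 lower. In each of the 6 the lowest clone stood above the higher parental library, a separation seen in 24.5% of all tested genes. The 6 had already been called higher, so their separation is no separate evidence. For Zmat3 and Btg2 the parental mean lay under the minimum, so both passed it only through the clones. In these bulk libraries a change in the share of a cell type and a change of RNA per cell cannot be told apart. The libraries' values are drawn gene by gene in the plot of normalized read counts, and the differences with their intervals in the plot of log2 fold changes.

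**Figure D1:**
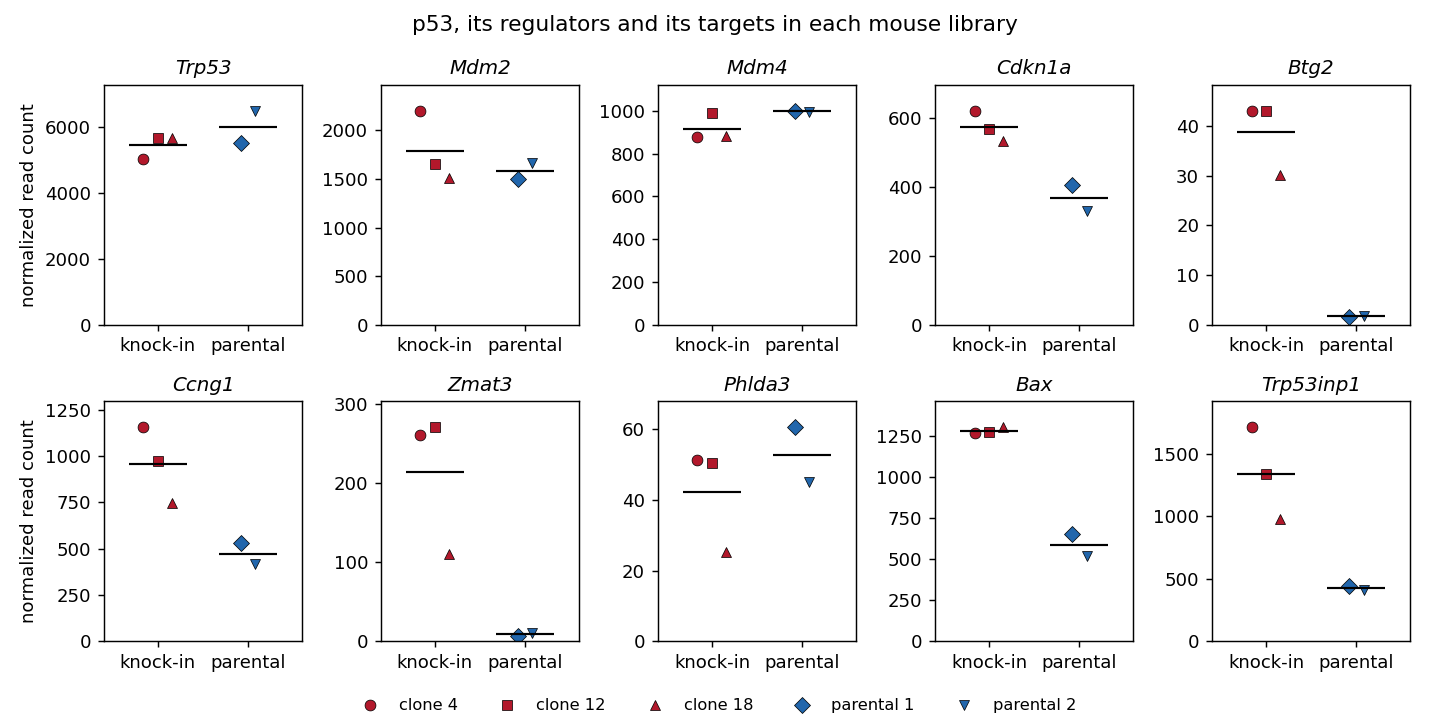
Normalized read count (y axis, linear from 0, one scale per gene) of the 10 genes in the knock-in clones and the parental libraries; symbols mark single libraries and bars the group means. The groups separate for Cdkn1a, Btg2, Ccng1, Zmat3, Bax and Trp53inp1, and the 3 clones of Bax lie between 1266 and 1303, against 651 and 517 in the parental libraries.

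**Figure D2:**
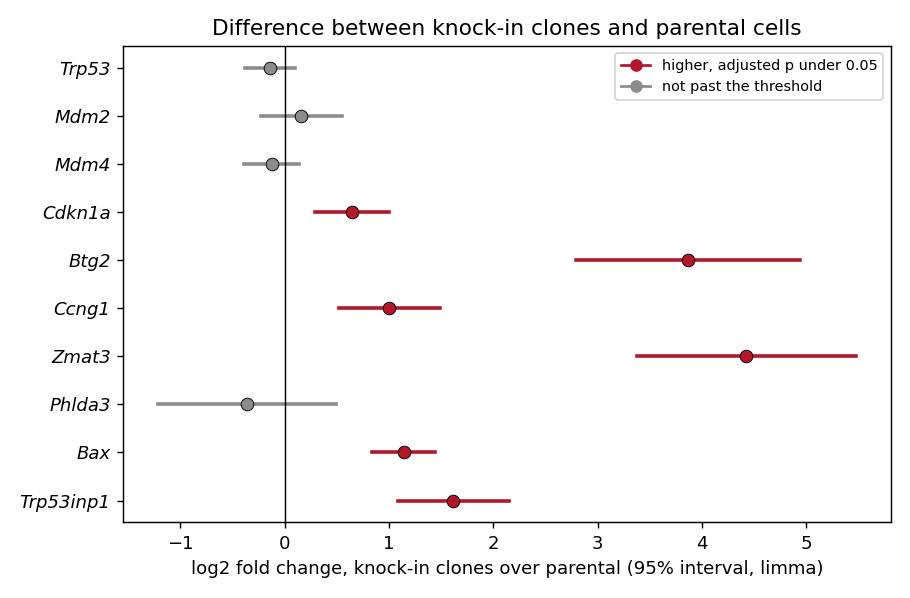
Log2 fold change of the 10 genes, knock-in clones over parental, with the 95% interval from limma (horizontal lines). The intervals of the 6 genes past the threshold lie above 0, from 0.29 at the lower end for Cdkn1a to 5.47 at the upper end for Zmat3, and those of Trp53, Mdm2, Mdm4 and Phlda3 include 0.

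Trp53 itself (ENSMUSG00000059552), the gene of the transcription factor, was at 5014, 5649 and 5667 in clones 4, 12 and 18, against 5519 and 6489 in the parental libraries. The groups overlapped, with 2 of the 3 clones between the parental values. The log2 fold change was -0.14 (95% interval -0.38 to 0.10, adjusted p = 0.393, limma), so a change of Trp53 RNA larger than these bounds lay outside the interval in either direction. The human counterpart overlaps WRAP53 on the opposite strand, and the use of strand in counting is not given in the sources used here. Mouse Wrap53 ranged from 137 to 208 over the clones, against 176 and 199 in parental replicates 1 and 2 (adjusted p = 0.723, limma). The Trp53 pseudogene listed in the table had no read in any library. The 3 genes whose profile over the 5 libraries lay closest to that of Trp53 were Sec61g, Gm10177 and M6pr-ps, at Euclidean distances of 0.0374, 0.0451 and 0.0514 between centred log2 profiles.

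Mdm2 (ENSMUSG00000020184), the ubiquitin ligase that degrades p53 and is also a p53 target, was at 2203, 1651 and 1507 in clones 4, 12 and 18, against 1501 and 1662 in the parental libraries. Only clone 4 stood above both parental values, and it was 1.46 times the lowest clone. The log2 fold change of 0.16 did not pass (95% interval -0.23 to 0.55, adjusted p = 0.551, limma), and without clone 4 it turned to -0.0018. Of the 7 target genes beside it, 6 rose while Mdm2 did not pass, although the difference between Mdm2 and those genes was not tested. Gm17306, Gm3435 and Ube2q2 had the profiles closest to Mdm2, at distances of 0.0929, 0.106 and 0.107.

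Mdm4 (ENSMUSG00000054387), which represses p53 activity without degrading it, was at 876, 991 and 879.7 in clones 4, 12 and 18, against 1001 and 993 in the parental libraries. Every clone lay below both controls, a separation found in 25.8% of tested genes, but clone 12 was almost level with parental replicate 2. Clones averaged 916 ± 65.3 and parental libraries 997 ± 5.62 (SD, n = 3 and 2). Its log2 fold change was -0.12 (95% interval -0.39 to 0.14, adjusted p = 0.489, limma).

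Among the targets that act on the cell cycle, Cdkn1a (ENSMUSG00000023067), which encodes the cyclin-dependent kinase inhibitor p21, was at 622, 569 and 534 in clones 4, 12 and 18, against 407 and 331 in the parental libraries. Clones averaged 575 ± 44.0 and parental libraries 369 ± 53.7 (SD, n = 3 and 2). That rise of 1.56-fold was the smallest of the 6 and the one with the largest adjusted p (log2 fold change 0.64, SE 0.152, adjusted p = 0.0275, limma). Its call was lost without clone 4, clone 12 or clone 18 (adjusted p = 0.0520, 0.0952 and 0.0502, limma) and without parental replicate 2 (0.123), while its log2 fold change stayed between 0.49 and 0.79 under all 16 alternatives. Gla, Vamp8 and Clec2d had the closest profiles, at distances of 0.0792, 0.0868 and 0.0983, and of these Gla and Vamp8 were past the threshold (adjusted p = 0.0410 and 0.0238, limma). They were picked for their likeness to a called gene, so these calls are no separate evidence.

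Ccng1 (ENSMUSG00000020326), which encodes the cyclin G1 that recruits a phosphatase to Mdm2, was at 1157, 975 and 747 in clones 4, 12 and 18, against 533 and 416 in the parental libraries. All clones lay above both controls and differed among themselves by 1.55-fold. It rose 2.00-fold (log2 fold change 1.00, SE 0.206, adjusted p = 0.0175, limma), a call that was lost without clone 12 (0.0722) and without parental replicate 2 (0.0931).

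Btg2 (ENSMUSG00000020423), an antiproliferative cofactor of mRNA deadenylation, was at 43.1, 43.1 and 30.1 in clones 4, 12 and 18, against 1.55 and 1.83 in the parental libraries. These values stand for 21, 35 and 19 reads in the clones and for 1 and 12 reads in parental replicates 1 and 2. The gene was thus barely detected in parental cells and low but measurable in every clone. Its log2 fold change was 3.87 (SE 0.463, adjusted p = 0.00211, limma), 14.6-fold on the log2(value + 1) scale and 22.9-fold as the ratio of the group means. With so few parental reads the size depended on the pseudocount, with log2 fold changes of 4.15 and 2.69 at pseudocounts of 0.5 and 5, and all 15 alternatives that tested it kept the call.

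Zmat3 (ENSMUSG00000027663), a zinc finger protein that binds RNA and takes part in the tumour suppression exerted by p53 in mice, rose in the clones. Its log2 fold change was above that of Btg2 by limma and below it with parental replicate 2 thinned to the depth of replicate 1 (4.53 for Zmat3 and 4.62 for Btg2). It was at 261, 271 and 111 in clones 4, 12 and 18, against 6.21 and 11 in the parental libraries, from 127, 220 and 70 reads in the clones and 4 and 72 in parental replicates 1 and 2. Clone 18 held less than the other clones, the highest being 2.44 times its level, but all clones were far above the controls. The log2 fold change was 4.42 (SE 0.445, adjusted p = 0.00146, limma), 21.5-fold, and ranked 63 from the top among the 13132 tested genes. It kept its call under all 16 alternatives, with log2 fold changes of 3.93 to 5.07.

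Phlda3 (ENSMUSG00000041801), a p53 target that restrains the kinase Akt, did not pass the test, and its difference from the other targets was not tested. It was at 51.3, 50.5 and 25.4 in clones 4, 12 and 18, against 60.6 and 45.0 in the parental libraries, and 2 clones fell between the parental values. Clone 18, with 16 reads, was the low one. The log2 fold change was -0.36, and its 95% interval of -1.21 to 0.49 was the widest among the 4 genes that did not pass (adjusted p = 0.533, limma). A rise of the size seen for Ccng1 lay outside that interval.

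Of the targets that act in cell death, Bax (ENSMUSG00000003873), which opens the outer mitochondrial membrane in apoptosis, was at 1266, 1272 and 1303 in clones 4, 12 and 18, against 651 and 517 in the parental libraries. The clones agreed within 1.03-fold, the smallest spread among the 10 genes. Bax rose 2.20-fold (log2 fold change 1.14, SE 0.130, adjusted p = 0.0017, limma) and kept its call under all 16 alternatives.

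Trp53inp1 (ENSMUSG00000028211), a nuclear protein that promotes p53-dependent arrest and death, was at 1713, 1336 and 976 in clones 4, 12 and 18, against 443 and 409 in the parental libraries. On average the clones held 1342 ± 368 and the parental libraries 426 ± 23.9 (SD, n = 3 and 2). The rise was 3.07-fold (log2 fold change 1.62, SE 0.225, adjusted p = 0.00499, limma) and held under all 16 alternatives, the largest adjusted p being 0.0449.

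The clones were not equal in these genes. Clone 18 was the lowest clone in 7 of the 10 and in 5 of the 6 that rose, Bax being the exception, while clone 4 was the lowest in 3 and clone 12 in none. Over all tested genes clone 18 was the lowest in 33.6%, clone 4 in 37.5% and clone 12 in 29.0%. The ratio of the highest to the lowest clone exceeded 1.5 in 4 of the 10 (Zmat3, Phlda3, Trp53inp1 and Ccng1). Its median over all tested genes, taken with 1 added to each value, was 1.24, and 6 of the 10 lay above it. Pairs of clones differed by more than 1.5-fold in 9.87% to 15.7% of tested genes, also with 1 added. The share for the 3 clones together was not computed and cannot be smaller than that of any pair. The 4 of the 10 thus have no matching share over all genes. Between the parental libraries the ratio exceeded 1.5 only for Zmat3 among the 10, at 1.77, where parental replicate 1 rested on 4 reads.

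How far each of the 6 calls depended on single libraries and settings is drawn in the plot of adjusted p-values by setting. Btg2, Zmat3, Bax and Trp53inp1 stayed past the threshold wherever they were tested. Cdkn1a lost its call in 7 of 16 alternatives and Ccng1 in 5, among them those without the deep parental library, and neither changed direction.

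**Figure D3:**
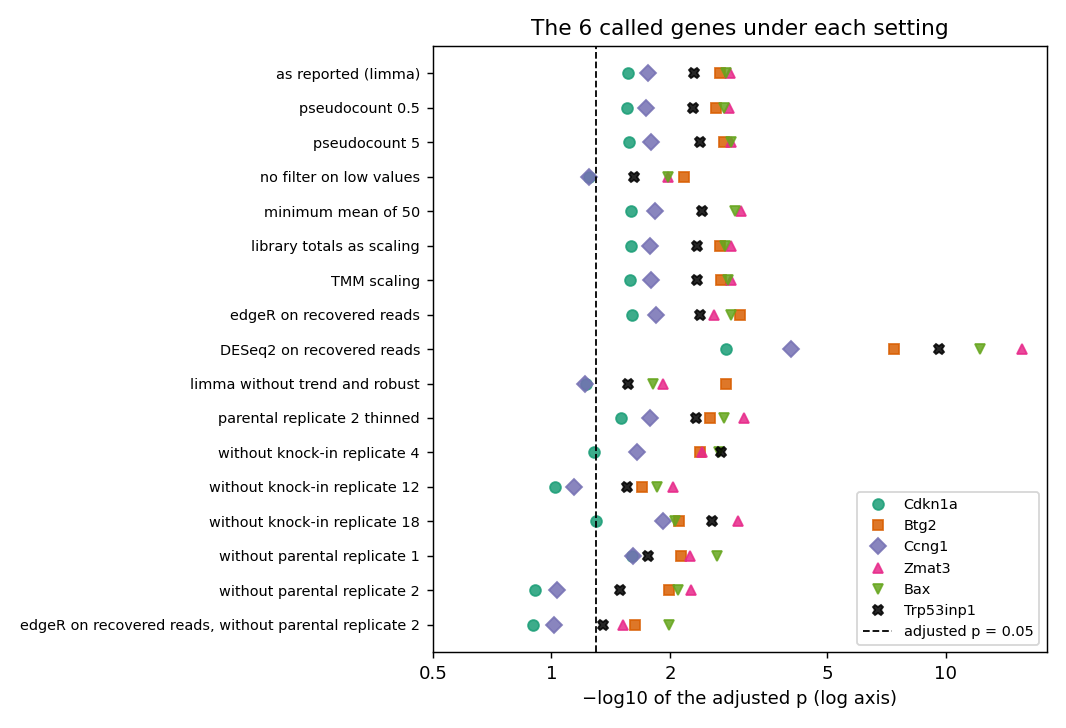
Adjusted p as −log10 (x axis, log spacing) of the 6 genes that rose, under each setting (rows); points left of the dashed line at 0.05 do not pass. Cdkn1a and Ccng1 cross the line in several rows, with Cdkn1a at 0.123 without parental replicate 2, and the other 4 stay to its right.

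Further genes that control p53 were called at a share near that of all genes. Of 32 such genes 30 were tested, 3 rose, 3 fell and 24 did not pass, with a median log2 fold change of -0.03. That is 10% in each direction, against 7.51% higher and 8.49% lower over all tested genes, and one of those that fell is Npm1, the edited gene described above. Cdkn2a, which encodes both p16INK4a and p19ARF, was at 1631, 1460.0 and 1195 in clones 4, 12 and 18, against 34.2 and 49.0 in the parental libraries. Every clone was far above the controls, the ratio of the means was 34.3 and the log2 fold change was 5.08 (SE 0.209, adjusted p = 4.87e-05, limma). The single value per gene does not separate the transcripts of the 2 proteins. Chek1, the checkpoint kinase of replication stress, was at 472, 624 and 637 in the clones, against 1454 and 1586 in the parental libraries, and fell by 1.41 on the log2 scale (adjusted p = 0.00162, limma). The p53 kinase Hipk2 and the ubiquitin ligase Huwe1 rose by less (log2 fold changes of 0.60 and 0.44), and Pml, which forms nuclear bodies that hold p53, fell by 0.39 on the log2 scale. Hipk2 was no longer called without clone 12 or parental replicate 1 (adjusted p = 0.0621 and 0.0568, limma). Huwe1 lost its call without clone 12, parental replicate 1 or parental replicate 2 (0.0657, 0.0542 and 0.0724). Pml lost it without clone 4, clone 12, parental replicate 1 or parental replicate 2 (0.0730, 0.160, 0.0631 and 0.229) and with library totals or TMM as scaling (0.0545 and 0.0513). Without clone 12 the list had 1 gene higher in place of 3.

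Of 23 further p53 targets in arrest, DNA repair and feedback 21 were tested, 3 rose, 4 fell and 14 did not pass (median log2 fold change -0.09). The shares were 14.3% higher and 19.0% lower, against 7.51% and 8.49% over all tested genes. Rprm, a mediator of G2 arrest, was at 39.0, 19.7 and 12.7 in clones 4, 12 and 18 and had no read in either parental library, which puts it at least 57-fold higher when 3 reads over both parental libraries are taken as the floor. It reached the minimum for testing only through the clones. The bound was 38.8 to 70.4 without single clones and 5.1 without the deep parental replicate 2. Plk3, a stress-responsive kinase, was at 263, 245 and 295 in the clones, against 109 and 156 in the parental libraries, and rose 2.04-fold (adjusted p = 0.0145, limma). Sesn2, an inhibitor of mTORC1 signalling, rose by 0.81 on the log2 scale, a call lost without clone 12, clone 18 or parental replicate 2 (adjusted p = 0.0637, 0.0682 and 0.121, limma). Those that fell were Btg1, a relative of Btg2, Fbxw7, a substrate receptor of a ubiquitin ligase, Pcna, the sliding clamp of DNA replication, and Polh, a translesion polymerase. Btg1 was at 65.6, 60.3 and 66.6 in the clones, against 137 and 117 in the parental libraries, the opposite direction to Btg2. Without clone 12, and likewise without parental replicate 2, none of the 21 was called lower, and without parental replicate 1 the count was 2. The adjusted p of Btg1, Fbxw7 and Pcna was 0.0582, 0.0693 and 0.0740 without clone 12 and 0.0648, 0.0832 and 0.0648 without parental replicate 2, and that of Btg1 and Pcna 0.0927 and 0.0733 without parental replicate 1.

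Among 21 further targets in cell death and autophagy 17 were tested, 4 rose, 1 fell and 12 did not pass (median log2 fold change 0.15). These shares of 23.5% higher and 5.88% lower stand beside 7.51% and 8.49% over all tested genes. Those that rose were Perp, Bbc3, Aen and Tnfrsf1b. Perp, a membrane protein of desmosomes and apoptosis, was at 638, 547 and 429.6 in clones 4, 12 and 18, against 32.6 and 33.4 in the parental libraries, a rise of 15.6-fold (log2 fold change 3.97, SE 0.204, adjusted p = 0.000101, limma). Bbc3, which encodes the BH3-only protein PUMA, was at 361, 298 and 254 in the clones, against 126 and 119 in the parental libraries, and rose 2.45-fold (adjusted p = 0.00499, limma). Both genes kept their clones apart from the controls, in the order seen for Trp53inp1, with clone 4 highest and clone 18 lowest. That order is not particular to p53 targets, being found also in the cell type markers Kit, Myb and Pecam1. The nuclease gene Aen rose by 0.42 on the log2 scale, a call lost without clone 12, clone 18, parental replicate 1 or parental replicate 2 (0.131, 0.0575, 0.117 and 0.0992, limma). Steap3, a ferrireductase, fell by 0.56 on the log2 scale and was not called without parental replicate 2 (0.0646). The count of rises was 2 without clone 12 and 2 without parental replicate 2. Fas, a death receptor, stayed below the minimum for testing, at 2.05, 2.46 and 4.76 in the clones, against 6.21 and 4.58 in the parental libraries. The other untested genes of this list went in differing directions. Tnfrsf10b was at 6.15, 8.62 and 7.93 in clones 4, 12 and 18, against 1.55 and 1.98 in the parental libraries. Dram1 was at 0, 4.92 and 6.34, against 14.0 and 16.9, and Epha2 had 1 read, in parental replicate 2.

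Of 25 further targets in metabolism and other functions 18 were tested, 2 rose, 2 fell and 14 did not pass (median log2 fold change 0.37). At 11.1% in each direction the called share was near the 7.51% and 8.49% of all tested genes. The log2 fold change was above 0 in 15 of the 18 and below 0 in 3. All clones stood above both parental libraries in 12 of the 18 and below both in 3. Over all tested genes these separations were seen in 24.5% and 25.8%. This lean of the list was not tested. Ak1, an adenylate kinase, was at 144, 150.2 and 124 in clones 4, 12 and 18, against 63.7 and 48.2 in the parental libraries, and rose 2.47-fold (adjusted p = 0.00712, limma). Gdf15, a secreted stress cytokine, rose by 1.32 on the log2 scale, but not past the threshold without clone 12, clone 18 or parental replicate 1 (adjusted p = 0.0791, 0.0608 and 0.0897, limma), and without clone 12 or clone 18 the list had 1 rise. Lpin1, a phosphatidate phosphatase, was at 24.6, 18.5 and 19.0 in the clones, against 158 and 160.5 in the parental libraries, and fell by 2.90 on the log2 scale (adjusted p = 0.000684, limma). Hspa4l, a heat shock protein, fell by 0.88 on the log2 scale (adjusted p = 0.0024, limma).

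p53 also lowers cell cycle genes indirectly, when p21 keeps the DREAM repressor complex on their promoters. Of 16 such genes all were tested, 6 fell, 0 rose and 10 did not pass, with a median log2 fold change of -0.54. The share that fell was 37.5%, against 8.49% over all tested genes. The count was 3 by limma without trend and robust moderation and 4 without clone 12. No gene of this list had an unadjusted p under 0.05 upward, and edgeR and DESeq2 called none higher, while 1 was called higher by limma without parental replicate 1. Ccna2, the cyclin of S phase, was at 1422, 1875 and 1799 in clones 4, 12 and 18, against 4125 and 3723 in the parental libraries (adjusted p = 0.00156, limma). Cks1b and Cdk1 fell by 0.82 and 0.68 on the log2 scale (adjusted p = 0.00567 and 0.00687, limma), and the others that fell were Ccnb1, Top2a and Kif23.

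**Figure D4:**
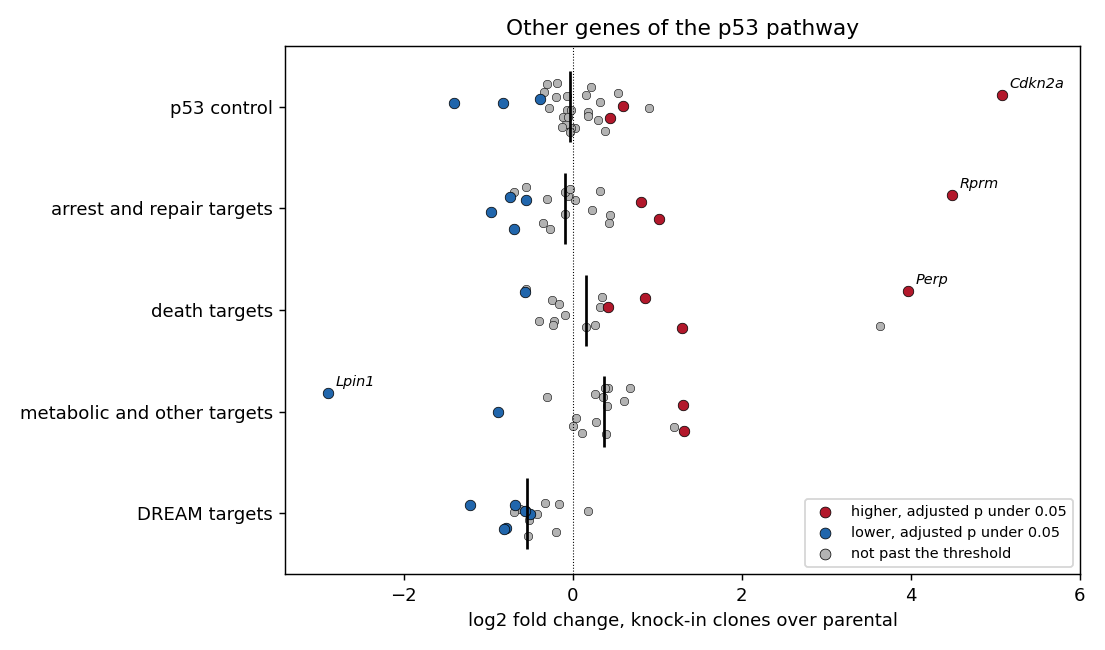
Log2 fold change, knock-in clones over parental, of the tested genes of 5 lists of the p53 pathway (points, spread vertically at random within a row; black bars are list medians). Red points rose and blue points fell past the threshold; Cdkn2a, Rprm and Perp lie farthest right and Lpin1 farthest left, and the fitted value of Rprm, with no parental read, depends on the pseudocount.

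Markers of other blood cell types moved between the same groups, and their part in the results above was not tested. Over all tested genes 7.51% were higher and 8.49% lower (adjusted p under 0.05, limma). Among the called markers, Tpsb2, Il5ra and Hbb-b1 reached the minimum for testing only through the clones. Cd79b and Ighm did so only through the parental libraries. Of 12 mast cell and basophil markers 6 were tested and 4 were higher in the clones. The summed level of the 12 was 4988 to 7653 in knock-in libraries and 3491 and 1263 in parental replicates 1 and 2. Cpa3, the largest of them in every clone, was at 2748 to 4388 in clones and 2450 and 386 in parental replicates 1 and 2. It was not called (adjusted p = 0.225, limma). Tpsb2, Cma1, Fcer1a, Mcpt4 and Epx had 438, 16, 9, 1 and 1 reads over the 3 clones, with Tpsb2 the only one of these 5 seen in clone 4, and none had a read in parental cells. Of 10 neutrophil and monocyte markers 6 were tested, 1 was higher and 2 were lower. The sum over the 10 was 12338 to 26419 among clones and 51735 and 46791 in parental replicates 1 and 2. Mpo, the largest of them in every library, was not called (adjusted p = 0.0629, limma), and Camp was at 0 throughout. Of 8 erythroid and megakaryocyte markers 4 were tested and 2 were higher (2054 to 3133 among clones, 390.0 and 323 in parental replicates 1 and 2), with Hba-a1 at 0 throughout. Of 8 B and T cell markers 3 were tested and 2 were lower (14.8 to 17.4 among clones, 143 and 159 among controls), with Cd3e and Cd3g at 0. Of 6 stromal and endothelial markers 2 were tested and 1, Pecam1, which blood progenitors also express, was higher. Sums of that list were 7517 to 9185 among clones and 3342 and 3543 among controls, with Cdh5 at 0.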

How the data were processed

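Gene expression was measured by RNA sequencing. Per the labels' protocols, RNeasy micro columns served for extraction and the NEBNext Ultra II kit for the mouse libraries. STAR 2.6.1, RSEM and DESeq2 are listed in the submitters' processing notes beside hg19 and mm9, with no role for any. How strand was used is not given in the sources used here. The authors deposited for each mouse library a signal per Ensembl gene, a read count divided by 1 size factor per library, called normalized read count here. Dividing by the smallest value of a library turned 100% of its nonzero values into whole numbers within 0.01, so reads were recovered, and edgeR's quasi-likelihood test on them called 2206 genes.

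The main test was limma 3.58.1 (R 4.3.3), with trend and robust moderation, on log2(value + 1) for genes with a mean of at least 10, over 3 clones and 2 parental libraries, with Benjamini-Hochberg adjustment over all 13132 genes and a threshold of 0.05. Fold changes are on the log2(value + 1) scale, which understates the change of low genes, unless given as ratios of means. Alternatives were edgeR 4.0.16, DESeq2 1.42.0, other pseudocounts, filters and scalings, thinning of parental replicate 2, and leaving out each library. Spellings Sfpi1, Kitl and Lrdd stood for Spi1, Kitlg and Pidd1. The tests were tried on simulated reads with known changes, drawn with the same spread setting for all genes. That setting is simpler than these data, so the trial does not show their rate of false calls. Each library was counted as a replicate because the labels list it as a separate sample. The chi-square per degree of freedom between libraries of a group was 6.23 to 29.6, so none was a second deposit of another, which does not show separate cultures.

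Named genes were the 10, Npm1, up to 3 genes called in each direction per list, and the 3 nearest profiles of Trp53, Mdm2 and Cdkn1a among genes with 1 identifier. Wrap53, the Trp53 pseudogene, Fas, Tnfrsf10b, Dram1, Epha2, Tnfrsf1b, Polh, Ccnb1, Top2a, Kif23 and the marker genes were named after their values were seen. The 10 genes and the lists were chosen with earlier results of these data known. Bounds from 3 reads cover counting error only.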

Additional observations from a re-analysis of the deposited data

How the results depend on the processing

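Among the 10 genes 4 to 6 were called higher and 0 lower under all 16 alternatives, and Mdm2 alone changed sign (log2 fold change -0.0018, adjusted p = 0.994, without clone 4 and at most 0.27 without other libraries, limma). Of the 2101 genes called in all, 986 higher and 1115 lower, limma without trend and robust moderation called 1271 (651 and 620). Leaving out single libraries gave 981 to 2117 called (464 to 1216 higher and 396 to 1120 lower), and without parental replicate 1 the split was 1216 higher and 560 lower. edgeR without the deep parental replicate 2, an alternative chosen after seeing the data, called 990 (492 and 498), and under it Cdkn1a and Ccng1 had adjusted p-values of 0.126 and 0.0962. Without a filter on low values they were at 0.0570 and 0.0573, and without trend and robust moderation at 0.0593 and 0.0608 (limma). Over the 5 lists 12 genes were called higher and 16 lower, against 6 to 14 higher and 9 to 17 lower without single libraries, 7 higher without trend and robust moderation, and 6 higher and 9 lower by edgeR without parental replicate 2. Among the named list genes, Hipk2, Huwe1, Pml, Sesn2, Pcna, Aen and Gdf15 lost their call without trend and robust moderation, Pml, Sesn2, Pcna, Aen and Gdf15 without the filter, and Huwe1, Pml, Rprm, Sesn2, Btg1, Fbxw7, Pcna, Aen, Steap3 and Ak1 by edgeR without parental replicate 2. Of the nearest profiles Ube2q2 and Clec2d were no longer among the 3 closest at a pseudocount of 5 (distances of 0.108 and 0.118). Btg2 and Phlda3 were not tested at a minimum mean of 50. No paired analysis was possible because clones and parental libraries share no replicate number. Depth limits Btg2, Zmat3 and Phlda3 most, which rested on 75, 417 and 82 reads in the clones and on 13, 76 and 334 in the parental libraries. Where 1 parental library was left out, the other was assumed to vary like the clones.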
